A study of Mus musculus with 4 samples.

Results

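The genes described here encode the IL-1 cytokines, tumor necrosis factor and the CXC chemokines that draw neutrophils, together with the blockers and the inflammasome sensor that bear on IL-1. They were 9 of the 32285 genes in the tables, namely Il1a, Il1b, Il1rn, Il1r2, Tnf, Cxcl1, Cxcl2, Cxcl3 and Nlrp3, and they were selected on their UMI levels per lineage and arm in earlier results of these cells, so their levels are given as a description with no test. Their transcripts were counted as unique molecular identifiers (UMIs, 1 for each captured RNA molecule) in each cell lineage, treatment arm and cohort. Cells were assigned to 4 lineages by gates of at least 1 UMI of each marker: T cells by Cd3e, mature DCs by Ccr7 with Fscn1, neutrophils by S100a8 with Csf3r, and monocytes/macrophages by Lyz2 with Ly6c2 or C1qb.

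The cells came from YUMMER1.7 melanomas, an immune-responsive mouse tumor line, grown subcutaneously in wild-type C57BL/6J young adult male mice and treated with intraperitoneal antibody. Dissociated tumors were enriched for CD45+ cells, the arms were tagged with hashtag antibodies, and each cohort was captured as 1 droplet library with a 10x 5′ kit. The long cohort was collected on day 21 after 4 doses over 2 weeks and the short cohort on day 14 after 2 doses over 1 week. The 4 arms of each cohort were isotype control IgG, anti–PD-1, anti-MIF (an antibody against macrophage migration inhibitory factor) and both antibodies together (the combination, written anti–PD-1/anti-MIF). Each arm of each cohort was 1 hashtagged sample, which gave 8 samples in all, and the mice within an arm could not be told apart. Cohort and library likewise cannot be told apart, and 20 cell barcodes occurred in both libraries, 12 of them among the cells kept.

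There were 2516 barcodes in the long library, which summed to 23702910 gene UMIs, and 4987 in the short library, which summed to 31799441. After removal of 425 and 626 hashtag doublets, cells without a hashtag, cells of poor quality and the cells of the fifth hashtag, 1671 cells of the long and 3119 of the short cohort remained. In the isotype, anti–PD-1, anti-MIF and combination arms these were 204, 319, 879 and 269 cells in the long cohort and 745, 1370, 556 and 448 cells in the short cohort. The gates held 253 and 290 T cells, 102 and 46 mature DCs, 27 and 41 neutrophils, and 803 and 1807 monocytes/macrophages (long and short). No gate held 441 and 851 cells, and 45 and 84 cells that passed more than 1 gate were kept apart.

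The gates were checked with markers that had not been used to draw them. The neutrophil gate held 45851 (long) and 44775 (short) CPM (UMIs of a gene per 1000000 UMIs of the summed cells) of S100a9, against 135 and 8.16 CPM in the monocyte/macrophage gate. Cxcr2, the neutrophil receptor for CXC chemokines, stood at 620 and 633 CPM in neutrophils and at 0.996 and 0.529 CPM in monocytes/macrophages. Csf1r, the receptor of macrophage colony-stimulating factor, stood at 476 and 402 CPM in monocytes/macrophages. It was also found at 177 and 167 CPM in the neutrophil gate, above the 5.05 and 6.33 CPM of T cells, and the source of that RNA was not tested. Cd3d was at 1006 and 1105 CPM in T cells and at 0.553 and 1.06 CPM in monocytes/macrophages. Of 7 melanocyte genes Mlana, Tyr, Tyrp1, Dct and Sox10 had 0 UMIs in every gate and Pmel at most 2, while Mitf, a factor that macrophages also express, stood at 53.1 and 71.9 CPM in monocytes/macrophages. A gate depends on depth, since 28 of 253 and 69 of 290 T cells entered it on a single Cd3e UMI, as 5 of 27 and 8 of 41 neutrophils did on a single Csf3r UMI. Median depth was 2407 and 1701 UMIs per neutrophil against 10976 and 6844 per monocyte/macrophage.

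IL-1α and IL-1β act through the signalling receptor IL-1R1 with its accessory chain. IL-1β is made as an inactive precursor that the NLRP3 inflammasome, through caspase-1, can cleave into its secreted form, while the receptor antagonist (Il1rn) and the decoy receptor (Il1r2) limit the signal. TNF and IL-1 both act through NF-κB, which drives transcription of Cxcl1, Cxcl2 and Cxcl3, the ligands of CXCR2 that call neutrophils from the blood.

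All 9 genes were matched in the annotation (GENCODE, build GRCm38). The Il1a and Il1b genes lay 54.6 kb apart on chromosome 2, at chr2:129299610-129309972 and chr2:129364570-129371139, both on the minus strand. The chemokine genes lay together on the plus strand of chromosome 5, Cxcl3 at chr5:90786103-90789600, Cxcl1 at chr5:90891241-90893115 and Cxcl2 at chr5:90903871-90905938, with 10.8 kb between Cxcl1 and Cxcl2. Il1rn lay on chromosome 2 (chr2:24336853-24351494, plus strand), Il1r2 on chromosome 1 (chr1:40074079-40125231, plus strand), Nlrp3 on chromosome 11 (chr11:59541568-59566956, plus strand) and Tnf on chromosome 17 (chr17:35199381-35202007, minus strand). The proximal promoters of the chemokines and of Il1b are shown because the chemokine promoters shared a string of letters that was not found in the Il1b window. Each line gives the 120 bases before the start site from the RefSeq table of build GRCm38.p6, read 5′ to 3′ on the gene's strand. Capitals mark matches to the NF-κB consensus and to TATAAA or ATAAAA.
Cxcl1 (chr5:90891125-90891244, plus strand): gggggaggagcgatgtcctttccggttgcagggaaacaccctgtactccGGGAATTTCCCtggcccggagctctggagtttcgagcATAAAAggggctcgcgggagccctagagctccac
Cxcl2 (chr5:90903779-90903898, plus strand): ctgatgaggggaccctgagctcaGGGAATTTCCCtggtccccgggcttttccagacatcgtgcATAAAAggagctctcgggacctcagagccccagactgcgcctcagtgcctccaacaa
Cxcl3 (chr5:90785981-90786100, plus strand): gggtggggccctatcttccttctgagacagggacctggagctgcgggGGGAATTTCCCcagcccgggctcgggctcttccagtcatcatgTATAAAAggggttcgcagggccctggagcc
Il1b (chr2:129371140-129371259, minus strand): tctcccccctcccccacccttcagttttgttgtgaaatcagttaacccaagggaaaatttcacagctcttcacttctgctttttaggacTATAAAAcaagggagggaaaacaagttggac

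The longest string common to the 3 chemokine promoters shown was GGGAATTTCCC, of 11 bases, which began 71, 97 and 73 bases before the start of Cxcl1, Cxcl2 and Cxcl3. Searched on both strands over 300 bases (250 before to 50 after the start), it occurred in 14 of 32851 promoters in the table, or 0.0426%, which is 0.0518% of genes, and in 3 of the 9 genes, by which it had been found. The wider NF-κB consensus, which overlaps that string, was found in a promoter of 9.55% of all genes and of 4 of the 9, the chemokines and 1 of the Nlrp3 starts. TATAAA was found for 15.7% of all genes and for 5 of the 9, and the overlapping string ATAAAA for 21.03% and for 7. A match is a description of the letters and not a measured binding site. The chemokine transcripts themselves are near copies in places, since Cxcl2 and Cxcl3 shared an identical stretch of 157 bases, within which reads cannot be told apart.

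Neutrophils held the highest mean level of 8 of the 9 genes, and the share of all genes highest in neutrophils was not counted. For Il1a, Cxcl1 and Cxcl3 this rested on 10, 5 and 26 molecules, from which no order can be read. For Il1rn and Nlrp3 the ranges overlapped those of monocytes/macrophages. Monocytes/macrophages, which were many more, held most of the molecules of 7 genes, the exceptions being Cxcl3 and, in the long cohort, Cxcl1. Il1b, encoding IL-1β, ran in the order neutrophils, monocytes/macrophages, mature DCs and T cells. Its level was 17268 ± 6144 CPM (SD, n = 6 arms) in neutrophils, 1991 ± 627 in monocytes/macrophages, 1060 ± 769 in mature DCs and 17.0 ± 29.4 in T cells (n = 8 arms each). The means leave out the long isotype and the short anti–PD-1/anti-MIF arms for neutrophils, which held 3 cells and 1 cell with Il1b at 3051 and 1178 CPM, within the monocyte/macrophage range or below it. In neutrophils the arms ran from 11395 through a median of 15959 to 28586 CPM, and in monocytes/macrophages from 1342 through 1835 to 3212 CPM, so the ranges of the arms that entered the means did not overlap. Assigning the cells of more than 1 gate to a gate lowered the long neutrophil level over all arms from 18077 to 11187 CPM, and that of Cxcl2 from 6937 to 4341 CPM. Within an arm the neutrophil level was 5.12 to 21.3 times that of monocytes/macrophages, with a median of 7.53 over 6 arms. The neighbours below were closer, and the mature DC range of 252 to 2680 CPM overlapped that of monocytes/macrophages. The gap narrowed when counted per cell, since a neutrophil carried fewer molecules in all: 52.9 (long) and 31.3 (short) Il1b UMIs per neutrophil against 22.9 and 18.2 per monocyte/macrophage. Per cell, Il1rn was lower in neutrophils (1.11 and 0.561 UMIs against 1.80 and 2.27), and Nlrp3 was close, at 1.15 and 1.22 against 1.00 and 1.12 UMIs.

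Shares of cells with an Il1b UMI gave the same order after each cell was thinned to 2000 UMIs and shallower cells were left out, which removed 9 of 27 and 26 of 41 neutrophils and left 18 and 15. They were 94.4% and 80.0% of neutrophils, 66.7% and 72.0% of monocytes/macrophages, 33.0% and 53.5% of mature DCs, and 2.64% and 3.63% of T cells (long and short). Without thinning these were 96.3% and 95.1%, 76.8% and 80.3%, 56.9% and 65.2%, and 4.74% and 3.79%. T cells are not known as a main source of IL-1β, and the DC and myeloid shares stood above theirs. The source of the Il1b UMIs in T cells was not tested, and in the short cohort 23 of 28 of them were in 6 cells with neither Cd8a nor Foxp3.

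**Figure D1:**
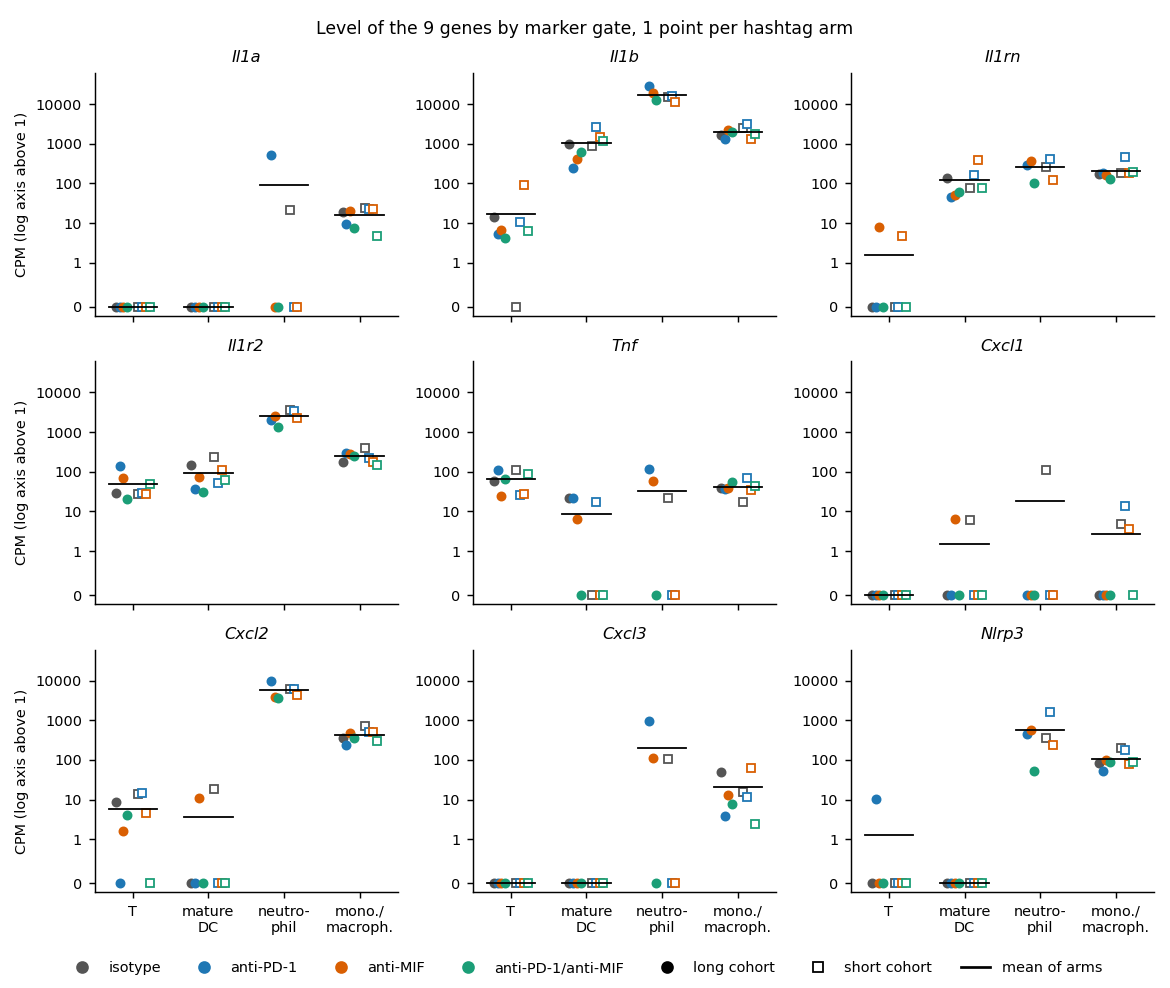
Level of each gene in each gate, with 1 point per hashtag arm (color for the arm, filled circles for the long and open squares for the short cohort) and a line at the mean; the vertical axis is CPM, logarithmic above 1. The neutrophil points lie above all monocyte/macrophage points for Il1b, Il1r2 and Cxcl2, and Il1a and Cxcl3 are at 0 in every T cell and mature DC sum.

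Il1a, encoding the IL-1 form that is active without cleavage, had 0 UMIs in T cells and in mature DCs in both cohorts. Monocytes/macrophages held 16.4 ± 7.79 CPM (SD, n = 8). With 3 UMIs as the most that a count of 0 allows over a gate, the level was at least 5.58-fold lower in long-cohort and at least 2.28-fold lower in short-cohort mature DCs than in monocytes/macrophages. In neutrophils it was detected in 2 of 6 arms, with a mean of 89.0 ± 208 CPM from 10 UMIs, and its position against monocytes/macrophages cannot be read at this depth.

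The IL-1 blockers differed from each other in where they were found. Il1r2, the decoy receptor, stood at 2499 ± 825 CPM (SD, n = 6) in neutrophils, from 1373 through a median of 2373 to 3513. In monocytes/macrophages it stood at 242 ± 79.3 CPM (n = 8), from 151 through 234 to 394, and no arm in the means of either gate reached the other's range. Mature DCs held 93.7 ± 69.0 CPM and were below monocytes/macrophages in 8 of 8 arms. Il1rn, the secreted antagonist, was at 260 ± 129 CPM in neutrophils and 211 ± 109 CPM in monocytes/macrophages. These ranges overlapped, and the ratio within an arm ran from 0.650 to 2.31 with a median of 1.15. Mature DCs held 123 ± 111 CPM of Il1rn, with 379 CPM in the short anti-MIF arm and 44.5 to 159 CPM in the other arms.

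Cxcl2, the chemokine also called MIP-2, was at 5700 ± 2381 CPM in neutrophils (3537 through 5298 to 9965, n = 6 arms) and at 436 ± 156 CPM in monocytes/macrophages (236 through 425 to 731, n = 8). The neutrophil arms left out for their few cells stood at 22549 CPM (long isotype, 3 cells) and 0 UMIs (short anti–PD-1/anti-MIF, 1 cell). The ranges of the arms in the means did not overlap, and the neutrophil level was 8.02 to 42.3 times higher within an arm, with a median of 9.12. T cells and mature DCs held 5.92 ± 5.82 and 3.63 ± 6.99 CPM. After thinning, 72.2% and 73.3% of neutrophils and 19.1% and 17.1% of monocytes/macrophages had a Cxcl2 UMI, against 1.00% and 0% of mature DCs, and without thinning these were 63.0% and 78.0%, 29.8% and 23.3%, and 1.96% and 4.35%. Il1b, Il1r2 and Cxcl2 were thus the 3 of 9 genes whose neutrophil and monocyte/macrophage ranges were apart. The share of all genes with ranges apart was not counted. By another measure, the fit of all genes described further on, 6.43% of 7180 genes tested were called higher in neutrophils. Since the genes were chosen with these levels known, nothing is read from the count of 3.

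Nlrp3, the inflammasome sensor, was found in neutrophils (552 ± 555 CPM, from 52.8 to 1625) and in monocytes/macrophages (108 ± 50.9 CPM, from 53.0 to 197). The neutrophil level was above that of monocytes/macrophages in 5 of 6 arms, the exception being the long anti–PD-1/anti-MIF arm. Mature DCs had 0 Nlrp3 UMIs in both cohorts, which put them at least 28.6-fold (long) and at least 16.8-fold (short) below monocytes/macrophages. The mature DC gate thus held Il1b transcripts without a count of the sensor.

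Tnf stood at 64.2 ± 36.5 CPM in T cells, 41.7 ± 14.9 in monocytes/macrophages, 32.1 ± 45.9 in neutrophils and 8.56 ± 10.4 in mature DCs. The neutrophil mean rests on 5 UMIs, from which its place in the order cannot be read. The T cell arms ran from 24.7 through 62.8 to 113 CPM and the monocyte/macrophage arms from 17.4 to 68.4 CPM, so these neighbours overlapped. In T cells the isotype, anti–PD-1, anti-MIF and combination arms held 59.4, 113, 24.7 and 66.2 CPM in the long cohort, against 109, 25.5, 28.1 and 87.9 CPM in the short. Anti-MIF was low in both cohorts, while anti–PD-1 was the highest arm of the long cohort and low in the short. These values rest on 95 (long) and 55 (short) UMIs over the 4 arms, so 25.5 and 28.1 CPM cannot be put in order. The 95% counting interval of the long anti–PD-1 arm (81.8 to 152 CPM) overlapped those of isotype and the combination. After thinning, 13.2% and 4.44% of T cells had a Tnf UMI, against 7.27% and 7.79% of monocytes/macrophages and 2.00% and 0% of mature DCs. In the short cohort monocytes/macrophages were thus above T cells, as they were in CPM summed over all arms (45.9 against 43.5).

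Because the gates differ in size, the order of levels was not the order of contributions. Monocytes/macrophages held 73.8% (long) and 79.0% (short) of all 24929 and 41540 Il1b UMIs, and neutrophils 5.73% and 3.09%. They likewise held 73.2% and 67.9% of Cxcl2, 82.2% and 85.3% of Il1rn, 77.2% and 81.4% of Nlrp3, and 80.5% and 83.8% of Il1a UMIs. Cells of no gate held 34.9% and 29.8% of Il1r2 and 60.0% and 47.2% of Cxcl3 UMIs. T cells held 14.7% and 6.73% of Tnf UMIs. These shares also depend on how many cells of each lineage were captured.

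**Figure D2:**
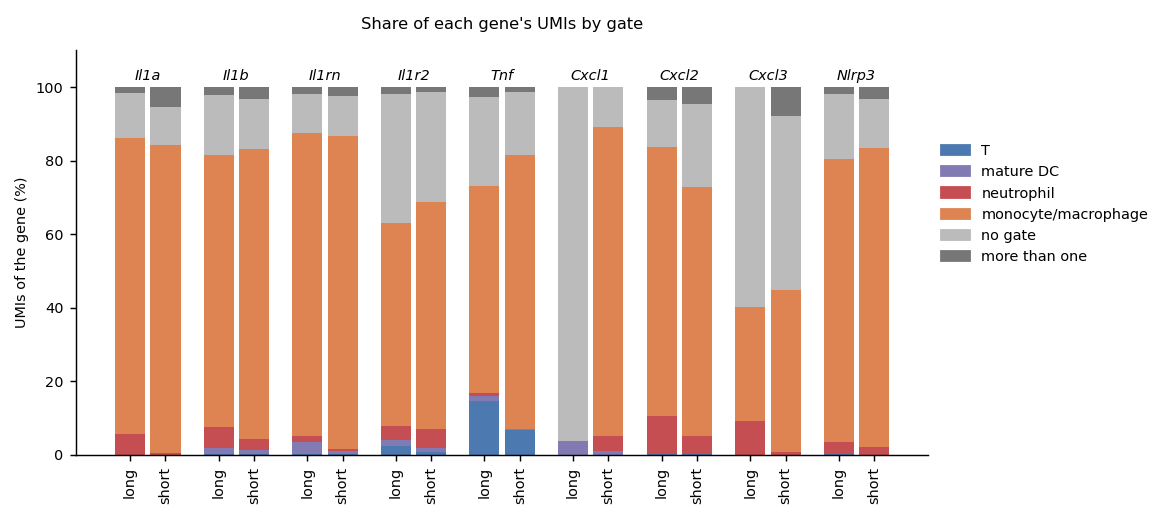
Stacked bars of the percentage of each gene's UMIs found in each gate, for the long and the short cohort. The monocyte/macrophage gate is the largest part for most genes, 73.8% and 79.0% for Il1b, while Cxcl1 in the long cohort is almost all in cells of no gate (96.3%).

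The chemokine transcripts were held by few cells, and those of Cxcl1 and Cxcl3 by very few. An Il1b UMI was found in 56.6% and 62.6% of all kept cells, but a Cxcl2 UMI in 18.8% and 18.6%, with 35 and 54 cells holding at least 50% of all Cxcl2 UMIs. Cxcl3 was found in 24 and 35 cells, and 3 cells in each cohort held at least 50% of its UMIs. Of these Cxcl3 cells, 79.2% and 77.1% also held a Cxcl2 UMI, and they carried 15.8% and 16.1% of all Cxcl2 UMIs. Both genes share a long identical stretch, as given above, which was not separated here.

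Cxcl1 was found in 7 and 18 cells. In the long cohort 100 of its 108 UMIs came from 1 cell of the anti–PD-1/anti-MIF arm that was in no gate. That cell held 79 UMIs of Dcn, 15 of Col1a1, 12 of Col1a2 and 3 of Pdgfra, which are fibroblast markers, and 0 of Ptprc, Lyz2, Cxcl2 and Il1b. In the short cohort 84.2% of its 120 UMIs were in the monocyte/macrophage gate, and the cell with the most, 36 UMIs, also held 44 UMIs of Cxcl2 and 43 of Il1b. With so few cells, no order of arms is read for Cxcl1 or Cxcl3. The top cells were looked up after the totals had been seen.

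Within the monocyte/macrophage gate, thinned to 2000 UMIs (784 long and 1745 short cells), an Il1b UMI was found more often in cells with Il1a, Il1rn, Il1r2, Cxcl2 or Nlrp3 than in the rest, in both cohorts. Of the cells with a Cxcl2 UMI, 84.0% and 88.0% had an Il1b UMI, against 62.6% and 68.7% of the rest. Of those with an Nlrp3 UMI, 85.1% and 84.7% had one, against 63.3% and 68.3% of the rest. Of the cells with Tnf, 50.9% and 72.1% had an Il1b UMI, against 68.0% and 72.0% of the rest, while 26.3% and 39.0% had an Il1rn UMI, against 20.8% and 28.8%. Not every pair was found together more often in both cohorts. An Il1r2 UMI was found in 22.3% and 21.9% of the cells with Il1rn, against 25.9% and 19.9% of the rest. These shares are a description over cells of few samples, and cells are not replicates.

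Neutrophils were too few for a comparison of treatments, and their values are given by arm. Il1b stood at 28586, 18882 and 12829 CPM in the anti–PD-1, anti-MIF and combination arms of the long cohort and at 15489, 16429 and 11395 CPM in the isotype, anti–PD-1 and anti-MIF arms of the short cohort. The sums behind them held 5 to 22 cells. Cxcl2 stood at 9965, 3891 and 3537 CPM and at 6213, 6198 and 4398 CPM in the same arms. Of these 6 arms both genes were highest in the long anti–PD-1 arm, where 7 cells were summed, and the other 5 lay within 11395 to 18882 and 3537 to 6213 CPM.

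In monocytes/macrophages, where at least 77 cells stood behind each arm, the anti-MIF arms lay on opposite sides of their controls in the cohorts. In the order isotype, anti–PD-1, anti-MIF and combination, Il1b stood at 1680, 1342, 2227 and 1935 CPM in the long cohort, against 2449, 3212, 1350 and 1735 CPM in the short. In the long cohort both arms with anti-MIF were above both without it, and in the short cohort both were below. The ratio of anti-MIF to isotype was 1.33 (95% counting interval 1.25 to 1.41) in the long and 0.551 (0.530 to 0.574) in the short cohort. That of anti–PD-1/anti-MIF to anti–PD-1 was 1.44 (1.35 to 1.54) and 0.540 (0.519 to 0.562). These intervals, like all intervals here, cover counting error only and not the spread between mice, and the arms of a cohort share their controls.

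Cxcl2 followed Il1b for anti-MIF and not for anti–PD-1. It stood at 365, 236, 485 and 363 CPM in the long cohort, against 731, 493, 518 and 293 CPM in the short, in the same order of arms. Anti-MIF over isotype was 1.33 and 0.709, and anti–PD-1/anti-MIF over anti–PD-1 was 1.54 and 0.595 (long and short). Each arm with anti–PD-1 was below its partner without it, at 0.646 (0.541 to 0.771) and 0.673 (0.638 to 0.711) for anti–PD-1 over isotype and 0.748 and 0.566 for the combination over anti-MIF. Il1b, in contrast, was lower with anti–PD-1 in the long cohort (0.799) and higher in the short cohort (1.31).

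Of the blockers, Il1rn stood out in 1 arm. It was at 476 CPM in the short anti–PD-1 arm and between 130 and 199 CPM in the other 7 arms, which made it 2.64 (2.42 to 2.88) times the short isotype level. Tnf was also highest in that arm, at 68.4 CPM against 17.4 CPM in short isotype, a ratio of 3.94 (2.99 to 5.27), while the long anti–PD-1 arm with 36.9 CPM was close to long isotype with 39.9 CPM. Il1r2 was highest in short isotype (394 CPM), above 223, 178 and 151 CPM in the short treated arms, but lowest in long isotype (176 CPM), below 289, 282 and 245 CPM. The isotype and anti–PD-1 arms of the short cohort stood apart for Nlrp3, at 197 and 177 CPM, against 79.7 and 89.4 CPM in the short anti-MIF arms and 53.0 to 96.7 CPM in the long cohort. Il1a was at 7.53 and 4.77 CPM with the combination and at 20.8 and 23.2 CPM with anti-MIF alone (long and short). With anti–PD-1 alone it was at 9.46 and 22.6 CPM, the long value overlapping that of the combination within its counting interval.

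**Figure D3:**
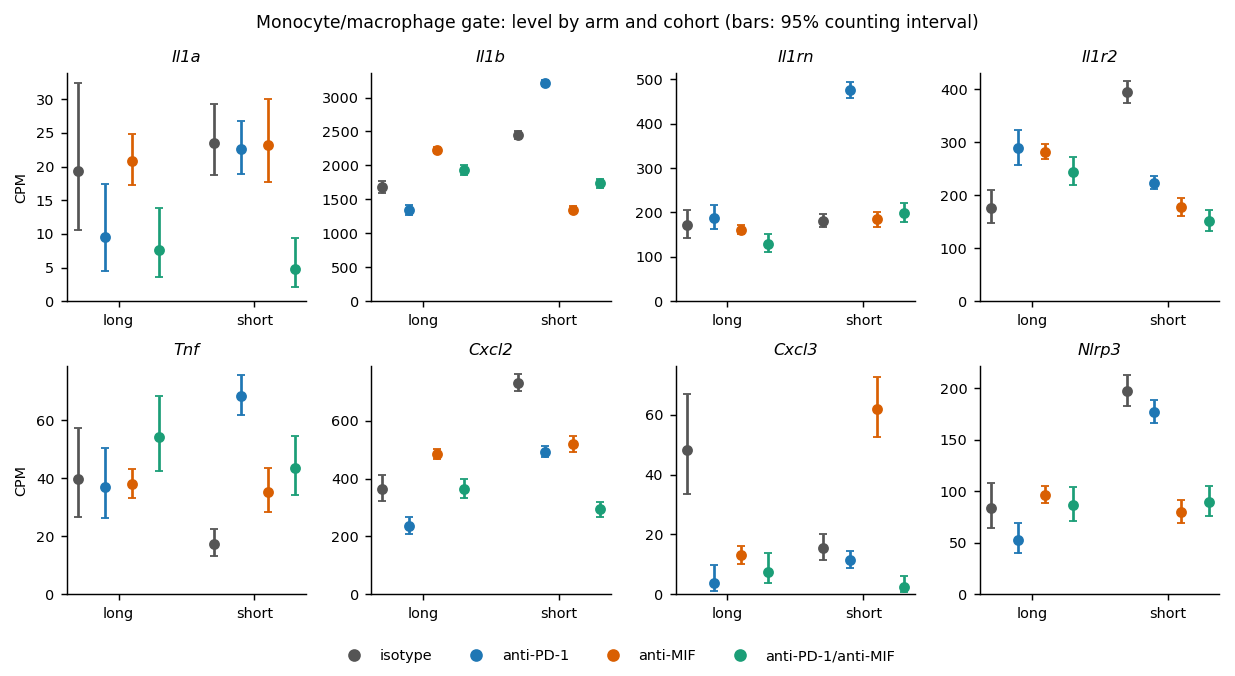
Level in CPM of 8 genes in the monocyte/macrophage gate by arm (color) and cohort, with 95% counting intervals as bars. For Il1b both arms with anti-MIF lie above the others in the long cohort and below them in the short cohort, and Il1rn is high in the short anti–PD-1 arm only.

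The make-up of the gate changed between these arms too. Cells with Lyz2 and C1qb, a complement gene of macrophages, but not Ly6c2 were 9.09%, 17.9%, 44.1% and 27.4% of the gate in the long cohort, against 25.6%, 4.31%, 10.8% and 4.86% in the short, in the order isotype, anti–PD-1, anti-MIF and the combination. Median depth was 9102, 8508, 12279 and 10455 UMIs and 7410, 6612, 7659 and 6364 UMIs. The summed CPM of 9 neutrophil markers in the gate was 507, 219, 102 and 1431 in the long arms, against 381, 377, 365 and 273 in the short arms. Of these markers 6, 6, 3 and 0 had 0 UMIs in the long arms, against 4, 2, 2 and 4 in the short arms. The most abundant was Slpi in every arm except long anti–PD-1/anti-MIF, where it was S100a9 at 913 CPM. Early stress genes, which can rise when cells are dissociated, differed too. Fos stood at 1161, 1119, 2255 and 1629 CPM in the long arms, against 1441, 1050, 770 and 857 CPM in the short. It thus had the directions of Il1b with anti-MIF in both pairs of arms, as had Fosb, Junb, Egr1 and Nr4a1. Jun had the opposite directions, and the other early stress genes had mixed ones. Outside the early stress genes Cd14, Zfp36, Dusp1 and Tnip3 also had the directions of Il1b. Cd14 stood at 565, 379, 766 and 805 CPM in the long arms, against 1275, 1315, 606 and 602 CPM in the short. The share of all genes with these directions was not counted. The part of these values in the arm differences was not tested, but Il1b could be read within the cells that held Ly6c2 without C1qb. There it stood at 1745 CPM with isotype and 3129 CPM with anti-MIF in the long cohort, and at 2167 and 1400 CPM in the short cohort, in the directions of the whole gate. For the combination over anti–PD-1 the Ly6c2 cells held 1569 against 1651 CPM in the long cohort, which is not the direction of the whole gate, and 1897 against 3175 CPM in the short cohort.

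By edgeR, no gene was called for either antibody in these sums. An additive edgeR quasi-likelihood model of the 8 sums called 0 of 9458 genes for anti-MIF at a Benjamini-Hochberg adjusted p below 0.05 (percent called 0), with 624 genes at an unadjusted p below 0.05, 8 genes called by DESeq2 and 55 without a low-count filter. For anti–PD-1 it called 0 genes (percent called 0), with 464 at an unadjusted p below 0.05, 0 by DESeq2 and 33 without the filter. Of the 71 genes of the IL-1, TNF and NF-κB pathway lists that were tested, 0 were called for either antibody. As a description, the fitted log2 change with anti-MIF was −0.26 (SE 0.26) for Il1b and −0.11 (SE 0.23) for Cxcl2, and with anti–PD-1 it was 0.80 (SE 0.28) for Tnf and −0.56 (SE 0.22) for Cxcl2. For Il1b and Cxcl2 the anti-MIF values average opposite directions in the cohorts.

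The long cohort differed from the short in 758 of 9458 genes, or 8.01% (3.51% higher and 4.5% lower), and in 3 of the 71 list genes, or 4.23%. Zfp36l1, an RNA-binding protein that promotes decay of cytokine mRNAs, was higher in the long cohort (log2 0.75), and the NF-κB subunits Nfkb1 (−0.61) and Rel (−0.58) were lower. Over all alternatives the list genes called ran from 0 to 12, so the 3 calls can be lost, and without a low-count filter the whole count was 1320. The count rested on single arms, falling to 6 genes without the long anti–PD-1, 42 without the short anti–PD-1/anti-MIF, 59 without the short anti-MIF, 120 without the short anti–PD-1 and 141 without the long anti-MIF arm. As a description, Nlrp3 (−0.66, SE 0.30) and Il1rn (−0.59, SE 0.24) had fitted changes below 0 in the long cohort.

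Il1r2 was on average higher, and Il1b and Il1rn lower, in the monocyte/macrophage cells with C1qb alone than in those with Ly6c2, a monocyte surface gene, alone. Il1r2 was at 161 ± 53.8 CPM with Ly6c2 alone, 382 ± 123 CPM with both and 343 ± 343 CPM with C1qb alone (SD, n = 8). The C1qb cells of the short isotype and short anti–PD-1 arms held 931 and 802 CPM, and the other arms 0 to 323 CPM, so the higher mean rested on those arms. Within an arm Il1r2 was higher with C1qb alone in 4 of 8 arms and lower in 4. Il1b was at 2092 ± 693 CPM with Ly6c2 alone, 2237 ± 964 CPM with both and 1378 ± 960 CPM with C1qb alone. Il1rn was at 230 ± 118, 220 ± 87.0 and 134 ± 102 CPM in the same order. With C1qb alone Il1b was lower than with Ly6c2 alone in 5 of 8 arms, and Il1rn in 7 of 8. Nlrp3 was at 108 ± 47.4 and 101 ± 66.1 CPM. The sub-gates held 303 and 1274 cells with Ly6c2 alone, 276 and 192 with C1qb alone and 224 and 341 with both (long and short), and the long isotype and short combination arms had only 7 and 12 C1qb cells.

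Cxcl3 rested on few cells in these sub-gates. Of its 126 and 276 UMIs in the gate, 118 and 252 were in cells with Ly6c2 alone, where 7 and 16 cells held them, 6 and 0 were in cells with C1qb alone, and 2 and 24 in cells with both (long and short), the 24 from 1 cell. In the long isotype, long anti–PD-1 and short combination arms the C1qb cells held 0 UMIs, and the levels that a count of 0 allows (91.0, 17.4 and 42.8 CPM) lay above the 65.3, 5.60 and 3.32 CPM of the Ly6c2 cells, so no order can be read in these arms. Lyz2 cells with neither gene, which are in no gate, held 288 and 196 CPM of Cxcl3 from 6 and 8 cells, so the gene was not limited to cells with Ly6c2.

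**Figure D4:**
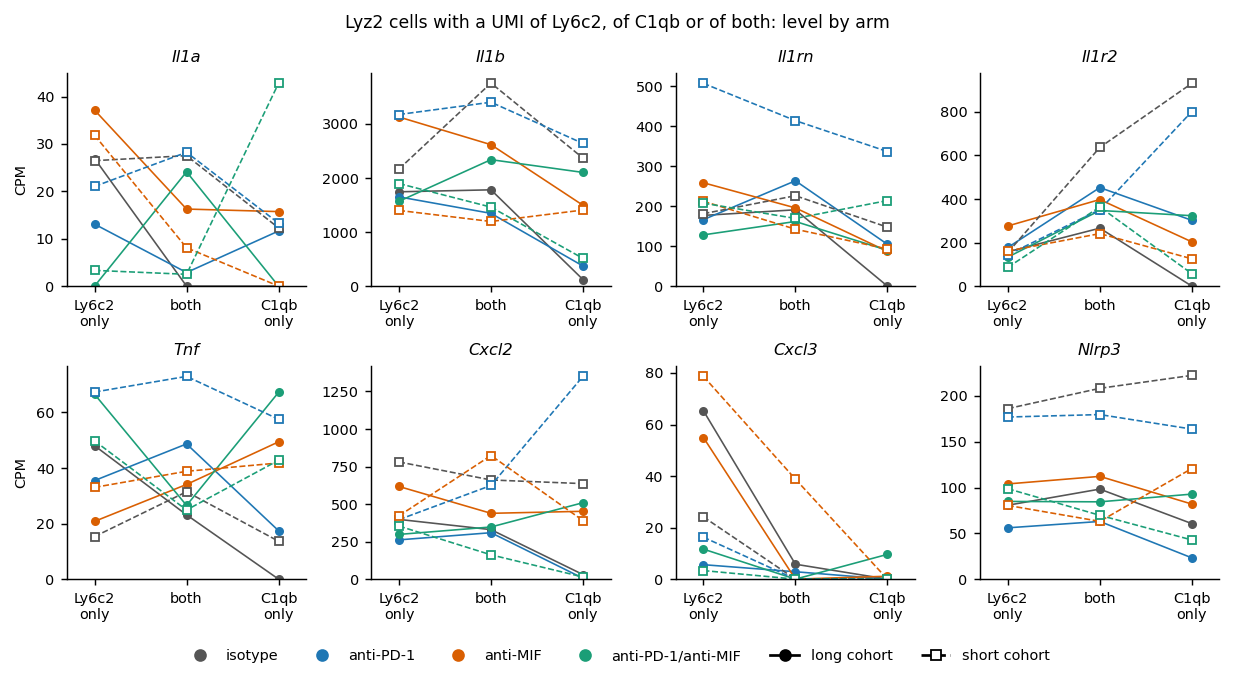
Level in CPM of 8 genes in Lyz2 cells with a UMI of Ly6c2 only, of both genes or of C1qb only, with 1 line per arm (solid and filled for the long, dashed and open for the short cohort). Cxcl3 is at 0 to 9.60 CPM with C1qb only but reaches 38.8 CPM, from 1 cell, with both genes in the short anti-MIF arm, and Il1r2 is highest with C1qb in the short isotype (931 CPM) and short anti–PD-1 (802 CPM) arms.

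The other genes of the pathway, which were not used to choose the 9, were tested in the same fits. Their lists were made with earlier results of these data known, so the counts are not independent of those results. In neutrophils against monocytes/macrophages (edgeR, 12 sums of 6 arms, arm as block, adjusted p below 0.05) 2482 of 7180 genes were called, or 34.6%, of which 28.1% of all tested were lower. Of 72 list genes 34, or 47.2%, were called, 20 higher and 14 lower. That count fell to 20 without the short isotype arm, which held 22 of the neutrophils. The counts include genes that passed the low-count filter only through 1 of the gates, as named below. The median log2 change of all genes tested was −0.88, and scaling by RLE moved it by 0.14 with the same sign for all 34 list genes.

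Genes of the IL-1 family and its receptors were called in both directions in neutrophils. Il1rap, the accessory chain of the IL-1 receptor, was at 323 ± 203 CPM (SD, n = 6) against 17.4 ± 8.72 CPM in monocytes/macrophages (n = 8), a log2 change of 3.61 (SE 0.42, adjusted p = 4.12e-16). Il1f9, an IL-1 family cytokine of the IL-36 branch, was at 193 ± 127 against 0.306 ± 0.343 CPM and was called higher. It passed the low-count filter through the neutrophil sums, where it is high, so its call adds nothing to these levels. Il18rap was also higher (log2 3.30), while Il18 (−2.57) and Il18bp, its binding protein (−3.40), were lower. In the monocyte/macrophage arms Il18rap stood at 4.39 to 12.8 CPM and Il1rap at 9.79 to 36.8 CPM. Both passed the filter only with the neutrophil sums, so their calls add nothing to their levels either. The 5 list genes tested were all called, with a median of 3.30, and the 3 called higher had all passed in this way. The list held 12 genes, of which only these 5 passed the low-count filter, so neither the count nor the median describes the whole list. The signalling receptor Il1r1 was low, with a mean of 1.87 CPM in monocytes/macrophages, 1.25 CPM in T cells and 0.927 CPM in mature DCs. The 6 neutrophil sums had 0 UMIs, and a count of 0 allows up to 38.0 (long) and 33.3 (short) CPM over the whole gate, so its level there cannot be set beside the others.

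Of 14 inflammasome genes 1 was called higher and 6 lower in neutrophils and 7 were not called, beside 28.1% lower among all genes tested, with a median log2 change of −1.58. Pycard, the adaptor ASC, fell by 2.19 on the log2 scale (SE 0.45, adjusted p = 1.72e-05) and Casp1, the protease that cleaves IL-1β, fell by 1.93 (SE 0.64, adjusted p = 0.0130). Naip2, Nlrp1b and Il18 were lower as well, while Txnip was higher (log2 1.23), and Gsdmd, the pore protein for release, was at 63.6 against 93.1 CPM and was not called.

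The chemokine receptor Cxcr2 was found in the gate with the highest level of its ligand Cxcl2. Cxcr2 was at 669 ± 216 CPM in neutrophils against 0.821 ± 1.31 CPM in monocytes/macrophages and was called higher. It passed the low-count filter through the neutrophil sums and had served to check that gate, so its call adds nothing to these levels. The formyl peptide receptors Fpr1 (log2 2.46) and Fpr2 (log2 1.37) were higher too. Fpr1, at 2.06 to 18.9 CPM in the monocyte/macrophage arms, passed the filter only with the neutrophil sums, so its call adds nothing either. Pf4, a chemokine of platelets and macrophages, had 0 UMIs in neutrophils against 51.4 CPM in monocytes/macrophages and was called lower. It passed the filter through the monocyte/macrophage sums and could only come out lower, so its call adds nothing. Its monocyte/macrophage arms ran from 9.64 to 115 CPM, while a count of 0 over the neutrophil gate allows up to 38.0 (long) and 33.3 (short) CPM. Csf3, the neutrophil growth factor, and Cxcl5 were at or near 0 in all gates, with Csf3 at 0.0736 CPM in monocytes/macrophages and Cxcl5 at 0 everywhere.

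Of 10 TNF receptor and signalling genes 3 were higher and 3 lower in neutrophils, the median being 0.05. Ltb, encoding lymphotoxin β (log2 4.06), was higher. Ltb stood at 4.05 to 9.04 CPM in the monocyte/macrophage arms and passed the low-count filter only with the neutrophil sums. Its call, which is among the 3 higher, thus adds nothing to its levels. Tnfrsf1a, the main TNF receptor (468 ± 49.0 against 167 ± 34.6 CPM, log2 0.96), was higher too. The survival factor Birc3 (log2 0.89) was also higher, and Traf1 (−1.83) was lower. Tnfrsf1b, the other TNF receptor, stood at 418 against 197 CPM and was not called (adjusted p = 0.141). Of 15 TLR, MyD88 and NF-κB genes 2 were higher, among them the endotoxin receptor Tlr4 (log2 1.38), and 1 lower, Nfkb2 (−2.36), with a median of −0.19, and the co-receptor Cd14 was not called (adjusted p = 0.671). Of 14 negative regulators of this signal 4 were higher and 0 lower with a median of 0.31, including Tnfaip3, the A20 brake on NF-κB (log2 1.62), Dusp1 (1.29), the inhibitor Nfkbia (1.04) and Ier3 (0.74). Of 11 early stress genes, which can rise when cells are dissociated, 4 were higher, among them Egr1 (2.55), Junb (1.07) and Fos (0.71), and 2 lower, the heat shock genes Hspa1a (−1.80) and Hspa1b (−1.93), with a median of 0.59. The part of dissociation in the cytokine levels was not tested.

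In mature DCs the inflammasome list was called mostly lower, and the list of TLR, MyD88 and NF-κB genes in both directions. Against monocytes/macrophages (edgeR, 16 sums of 8 arms) 4429 of 8662 genes were called, or 51.1%, with 19% higher and 32.1% lower, and 57 of 70 list genes, or 81.4%, of which 17 were higher and 40 lower. Of 14 inflammasome genes 12 were lower and 0 higher. Pycard fell by 2.20 (adjusted p = 2.00e-14), Txnip by 3.18 and Naip2 by 3.66, and Il18, Nlrp1b, Mefv and Nlrc4 had 0 UMIs in mature DCs. Genes with 0 UMIs there passed the low-count filter through the monocyte/macrophage sums, where they are high, and could only come out lower. Such calls add nothing to the levels, here or in the other lists of this comparison, though the counts include them. The endotoxin co-receptor Cd14 stood at 8.96 CPM against 789 CPM (fell by 7.35 on the log2 scale), and Tlr2 (log2 −5.33) and Tlr4 (log2 −5.57) were lower too, as was the adaptor Myd88 (log2 −2.43).

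Relb, an NF-κB subunit of DC maturation, was at 742 ± 118 CPM in mature DCs against 38.4 ± 13.0 CPM in monocytes/macrophages (n = 8 each, log2 4.09, SE 0.19, adjusted p = 1.49e-29). Nfkb2 (2.57) and Rel (2.41) were higher too, and in all 7 of the 15 TLR, MyD88 and NF-κB genes were higher and 6 lower, with a median of 0.36. Among 10 TNF genes 4 were higher and 2 lower with a median of 0.31, led by Traf1 (1150 against 71.8 CPM, log2 3.92) and Birc2 (log2 3.90), while Tnfrsf1a was lower. Of the early stress genes 10 of 11 were lower with a median of −1.55, Fos by 4.01 and Egr1 by 5.09. Of the negative regulators 5 were higher, including Zfp36l1 (2.19) and Tnip3 (1.61), and 6 lower, including Ier3 (−4.26), with a median of −0.03. Of the 4 IL-1 family genes that passed the filter, among 12, 1 was higher and 2 lower, Il18 and Il1rap with 0 UMIs in mature DCs. As above, the calls of these 2 genes add nothing to their levels. The 3 tested chemokine receptor and ligand genes, Fpr1, Fpr2 and Pf4, were all lower. As a description, the same fit gave a log2 change of −1.40 (SE 0.17) for Il1b, −1.23 (SE 0.22) for Il1rn and −1.68 (SE 0.23) for Il1r2.

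Within monocytes/macrophages most called list genes were lower with C1qb. In C1qb cells against Ly6c2 cells (edgeR, 16 sums of 8 arms) 2148 of 7527 genes were called, or 28.5%, with 13.3% higher and 15.2% lower, and 39 of 67 list genes, or 58.2%, with 5 higher and 34 lower. The TLR, MyD88 and NF-κB list had 8 of 15 lower and 0 higher with a median of −0.56, against −0.0044 for all genes tested. Examples are the adaptor Myd88 (−1.09, adjusted p = 2.60e-05), Nfkb2 (−0.92) and Cd14 (−0.81). Of 14 inflammasome genes 7 were lower, led by Mefv (−2.23), Il18 (−1.49) and Casp4 (−1.35), and 2 higher, P2rx7 (0.92), the ATP receptor that triggers NLRP3, and Nlrp1b (0.59). The median of that list was −0.39.

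Of 8 TNF genes 4 were lower and 0 higher (median −0.54), among them Traf1 (−1.84) and Tnfrsf1b (−1.11). Of 14 negative regulators 6 were lower, including Nfkbia (−1.05), Zfp36 (−1.04) and Bcl3 (−1.46), and 1 was higher, Tnip3 (1.79), with a median of −0.48. Of 11 early stress genes 8 were lower, including Nr4a1 (−1.35) and Ier2 (−1.10), and 1 higher, Fosb (0.92), with a median of −0.65. Of the 3 IL-1 family genes tested Il1rap (−1.81) and Il18 were lower. Of the 3 genes tested in the chemokine and receptor list Pf4 was higher (4.93) and Fpr1 and Fpr2 were not called. As a description, the fitted changes of the 8 genes that passed the low-count filter (all but Cxcl1) included −0.81 (SE 0.27) for Il1b, −0.80 (SE 0.19) for Il1rn and 0.90 (SE 0.34) for Il1r2.

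**Figure D5:**
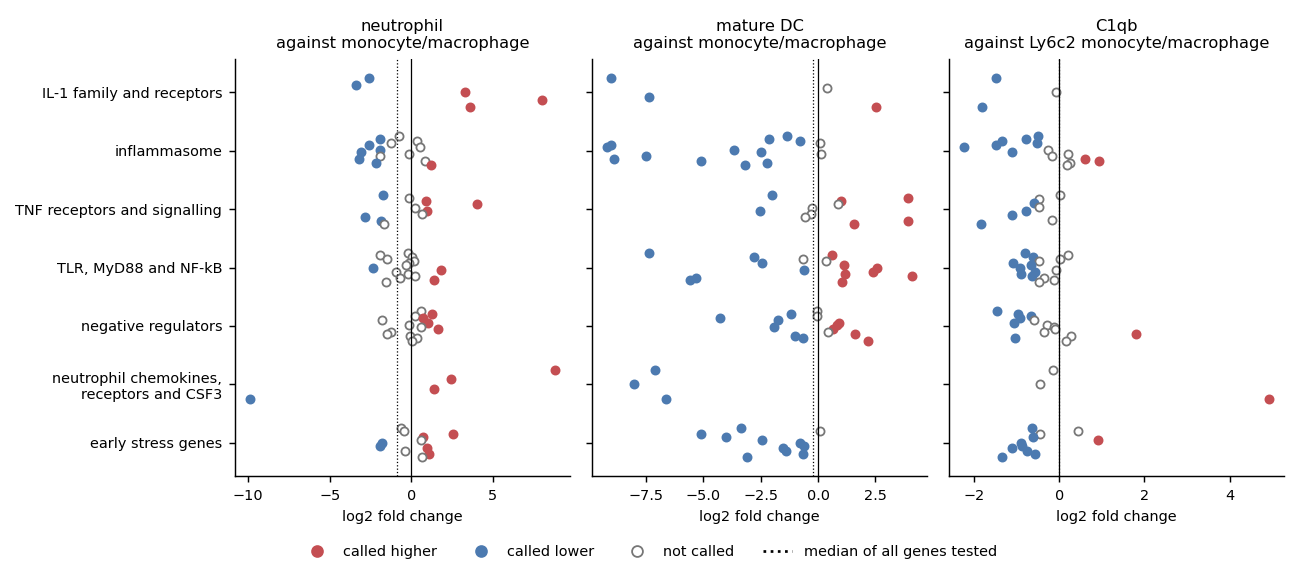
Fitted log2 change of each tested gene of the 7 pathway lists in 3 comparisons, with filled points for genes called by edgeR and a dotted line at the median of all genes tested. Most inflammasome points lie on the lower side in neutrophils and mature DCs; points beyond 6 below 0 in mature DCs and neutrophils include genes with 0 UMIs there, whose fitted size is no bound.

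The genes whose levels ran most like those of the 9 were sought over 30 sums of an arm and a gate, among 7859 genes, by Pearson's r of log2(CPM + 10). The sums share libraries and arms, and r mostly follows the difference between gates, so it is a description with no p. Il1b ran closest to Cd9 (r = 0.97), Syk (0.96) and Nfe2l2 (0.95), and Cxcl2 to Slpi, Cd300ld and Clec4d (0.98 each). Clec4d, a C-type lectin of myeloid cells, was also closest to Nlrp3 (0.97), and Il1r2 ran closest to Cd33 (0.94). Il1rn ran with Cdkn1a (0.95), Csf2ra (0.93) and Il1b (0.93). Il1a ran closest to Cxcl3 (0.85) and Cxcl3 to Tlr4 (0.88), and Tnf reached only 0.79, with Arhgap4.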

How the data were processed

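Per the labels and the study's methods, the authors aligned each library to mm10 and counted UMIs per gene and cell with Cell Ranger 7.1.0, and they worked in Seurat 5.1.0 (R 4.3.2). The deposited tables hold raw UMI counts of genes and of hashtags per cell, not normalized, and the files give no cell types. No per-sample column was left unused (0). Depth is given in the report.

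Cells were assigned to hashtags with HTODemux (Seurat 5.3.0 in R 4.3.3, positive quantile 0.99), and hashtag doublets were removed. Cells with 200 to 5000 genes and at most 5% mitochondrial UMIs were kept. No further doublet caller was run, and cells in more than 1 gate were left out of the gates. The fifth hashtag (322 long and 993 short cells), named anti-PD1-MIF-DDT in the hashtag tables, is not described in the labels and entered no comparison between groups. Its values beside isotype stand in the closing section.

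Counts were summed per arm and gate. Sums of at least 5 cells entered the mean ± SD over arms and the fits. Poisson intervals for levels and conditional binomial intervals for ratios are at the 95% level, and a count of 0 was taken to allow 3 counts. Sums were tested with edgeR 4.0.16 (quasi-likelihood, TMM, filterByExpr, arm as block between gates, cohort and both antibodies as terms within the monocyte/macrophage gate), with Benjamini-Hochberg adjustment over all genes and a threshold of 0.05. The genes that draw the gates were left out of the gate comparisons. DESeq2 1.42.0 was an alternative. The procedure was tested on simulated data. Since mice within an arm are not separated, p-values measure only the spread between arms. Python 3.11.15 with pandas 2.3.3, numpy 2.4.6, scipy 1.17.1, matplotlib 3.10.9 and Biopython 1.88 did the rest.

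The 9 genes, the gates and the 7 pathway lists (IL-1 family and receptors, inflammasome, TNF receptors and signalling, TLR/MyD88/NF-κB, negative regulators, neutrophil chemokines with receptors and CSF3, early stress genes) were chosen with earlier results of these data known. Named list genes are up to 6 called genes of each list and comparison by adjusted p and genes among the 4 of each list with the highest mean CPM, and other called list genes named beside them were chosen after their values were seen. The cells with the most chemokine UMIs, the cells of no gate split by Lyz2 and the T cells split by Foxp3 were also looked at after the values were seen. The 3 genes most like each of the 9 were taken among genes with a mean of at least 10 CPM. Alternatives were RLE scaling, no low-count filter, DESeq2, no block, gates of at least 2 UMIs, assigning cells of more than 1 gate, an HTODemux quantile of 0.95, mitochondrial UMIs up to 10%, genes per cell without an upper limit, and leaving out each arm.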

Additional observations from a re-analysis of the deposited data

Results flagged for a closer look

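The direction of the anti-MIF difference in the monocyte/macrophage gate was opposite in the cohorts for Il1b and Cxcl2, in both pairs of arms, with each counting interval on its side of 1. Anti-MIF over isotype was 1.33 for Il1b and 1.33 for Cxcl2 in the long cohort, against 0.551 and 0.709 in the short. Anti–PD-1/anti-MIF over anti–PD-1 was 1.44 for Il1b and 1.54 for Cxcl2 in the long cohort, against 0.540 and 0.595 in the short. Nlrp3 had the same directions, at 1.15 (0.883 to 1.53) and 1.63 in the long cohort, against 0.404 and 0.505 in the short, with 1 interval that includes 1. The early stress genes Fos, Fosb, Junb, Egr1 and Nr4a1 had these directions in the same gate too. Jun had the opposite directions and the other early stress genes had mixed ones. Cd14, Zfp36, Dusp1 and Tnip3, outside the early stress genes, had the directions of Il1b too. The share of all genes with these directions was not counted. The part of any of these genes in the difference was not tested. Among the cells with Ly6c2 without C1qb, the long combination held 1569 CPM of Il1b against 1651 CPM with anti–PD-1, so the long direction was not found there in that pair. For anti–PD-1 the direction was opposite in both pairs for Il1b, with anti–PD-1 over isotype at 0.799 and the combination over anti-MIF at 0.869 in the long cohort, against 1.31 and 1.29 in the short. For Il1r2 it was opposite in 1 pair, with anti–PD-1 over isotype at 1.64 (long) and 0.566 (short) and the combination over anti-MIF at 0.867 and 0.852. Every treated arm was above isotype for Il1r2 in the long cohort and below it in the short, so anti-MIF over isotype was opposite too. The combination was below anti–PD-1 alone in both cohorts. For Tnf anti–PD-1 over isotype was 0.924 (0.557 to 1.55) and 3.94. In the other pair the Tnf level with the combination was above that with anti-MIF in both cohorts (54.2 against 38.0 CPM long, 43.5 against 35.2 CPM short). The difference between cohorts was not tested, the ratios of a cohort share their arms, and each arm was 1 hashtagged sample, so cohort, library and the mice behind an arm cannot be told apart.

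Cells of the fifth hashtag, which entered no comparison, held some of the genes above and some below the level of isotype cells in the same gate (227 long and 630 short monocyte/macrophage cells). In the long cohort their Il1b level was 3056 CPM against 1680 CPM in isotype, Il1rn 570.4 against 172 CPM, Il1r2 255 against 176 CPM and Cxcl2 439 against 365 CPM. In the short cohort Il1rn was at 275 against 181 CPM. In each of these cases the counting interval lay above that of isotype. Cxcl3 in the long cohort was at 8.27 against 48.2 CPM, but its UMIs came from 7 and 3 cells, so no order is read. In the short cohort the counting intervals lay below that of isotype for Il1b (2248 against 2449 CPM), Il1r2 (243 against 394 CPM), Cxcl2 (485 against 731 CPM), Nlrp3 (117 against 197 CPM) and Il1a (12.6 against 23.6 CPM). Il1b, Il1r2 and Cxcl2 were thus above isotype in the long and below it in the short cohort.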

How the results depend on the processing

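Between neutrophils and monocytes/macrophages DESeq2 called 1648 genes against 2482 with edgeR. Without a low-count filter anti-MIF gave 55 calls, anti–PD-1 33 and long against short 1320, and DESeq2 gave 8 calls for anti-MIF. Leaving out each arm in turn gave 1827 to 2264 genes for neutrophils, 3550 to 4418 for mature DCs, 1644 to 2223 for C1qb against Ly6c2, 0 to 0 for anti-MIF, 0 to 1 for anti–PD-1 and 6 to 1132 for long against short. The arm as a block pairs gates of the same hashtagged sample. Without that replicate block the counts were 2243, 3466 and 1707, within 1.5 times of those with it. Replicate numbers of the labels could not pair the arms, since each arm is numbered 1. Over all alternatives the list genes called ran from 20 to 36 in neutrophils, 46 to 59 in mature DCs, 28 to 43 in C1qb against Ly6c2, 0 to 2 for anti-MIF, 0 to 3 for anti–PD-1 and 0 to 12 for long against short.

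Of 360 levels of the 9 genes under alternatives, 16 moved over 1.5 times. Assigning cells of more than 1 gate lowered the long neutrophil levels of Il1b from 18077 to 11187 CPM and of Cxcl2 from 6937 to 4341 CPM. Gates of at least 2 UMIs raised Il1r2 in short T cells from 31.7 to 60.4 CPM and lowered Cxcl3 in long monocytes/macrophages from 13.9 to 5.92 CPM. Il1a, Cxcl1 and Cxcl3 rested on few molecules or few cells, and the neutrophil arms on 5 to 22 cells.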

Other observations

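Il1r2, the IL-1 decoy receptor, had its highest level among T cells in those with a UMI of Foxp3, though most of its T cell UMIs (68 of 108 long and 35 of 40 short) were in cells without one. In the long cohort 21 T cells with Foxp3, the regulatory T cell factor, held 273 CPM (95% counting interval 195 to 371), against 47.3 CPM (36.8 to 60.0) in the 232 T cells without one. In the short cohort the values were 45.2 CPM (14.7 to 105) in 20 cells and 30.4 CPM (21.1 to 42.2), with overlapping intervals. Tnf had 2 and 1 UMIs in Foxp3 cells (long and short), or 13.6 CPM (1.65 to 49.2) and 9.03 CPM (0.229 to 50.3), against 64.7 CPM (52.2 to 79.3) and 46.8 CPM (35.2 to 61.1) in the rest, so the intervals overlapped in the short cohort. The split was chosen after the values were seen.

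Cells of no gate were divided by Lyz2 for the same reason. The 120 long and 308 short cells with a Lyz2 UMI held 2208 and 2248 CPM of Il1b and 288 and 196 CPM of Cxcl3, with 57.2% and 46.7% of all Cxcl3 UMIs. The 321 and 543 cells without one held 1077 and 926 CPM of Il1b and 589 and 491 CPM of Il1r2, with 28.4% and 22.0% of all Il1r2 UMIs. In the long cohort these cells also held 4670 CPM of the MHC class II gene H2-Ab1 and 328 CPM of Siglech, a gene of plasmacytoid DCs. Camp and Ngp, granule genes of neutrophil precursors, stood at 50.6 and 101 CPM in the long neutrophil gate but at 2261 and 4094 CPM in the 45 long cells of more than 1 gate.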
